A study of Rattus norvegicus with 5 samples.

Results

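The nuclei described here are ventral tegmental area (VTA) nuclei that carried the transcripts of a dopamine neuron and no transcript of Slc17a6, the gene of the vesicular glutamate transporter VGLUT2. The nuclei were chosen by measured values. A barcode was taken as a member if it held at least 1000 UMIs (unique molecular identifiers, each counting 1 captured RNA molecule), more than 200 and under 5000 genes and under 5% mitochondrial UMIs, if at least 3 of Th, Slc6a3, Slc18a2 and Ddc were detected with a summed level of at least 8 per 10000 UMIs, if it had a UMI of at least 1 of the neuronal genes Nyap2, Rbfox3, Syt1, Celf4 and Grin2b, if the oligodendrocyte gene Mog was under 10 per 10000, and if Slc17a6 was at 0 UMIs. By this rule 1998 of 22084 barcodes (9.05%) were Slc17a6-negative dopamine nuclei. The libraries were made from nuclei of frozen VTA tissue of 5 rats, 1 library per rat, with the 10x Genomics 3′ v3.1 assay. All 5 rats were of 1 condition, labelled as saline treatment and described in the study as drug-naïve. They were adult male Sprague-Dawley rats whose punches from both sides were combined, so that no treatment was compared. Each comparison was therefore made between groups of nuclei of the same rats.

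Dopamine neurons make dopamine from tyrosine with tyrosine hydroxylase (Th) and aromatic amino acid decarboxylase (Ddc), load it into vesicles with the transporter VMAT2 (Slc18a2) and take it back up with the dopamine transporter (Slc6a3). In the VTA they send axons to the nucleus accumbens and cortex and take part in reward and motivation. Some of them also make VGLUT2 and release glutamate, and the nuclei described here are those in which that transcript was not seen.

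The upstream sequences of the genes that define the group are given here because their transcripts were used to find it. Promoters from RefSeq (build GRCr8) were searched, on both strands and over the 250 bases before each start, for the cyclic AMP response element (CRE) TGACGTCA, which reads the same on both strands, and for the element AAAGGTCA (NBRE), which orphan nuclear receptors of the Nr4a family can bind. The CRE was found in the promoters of Th and Slc18a2, starting at base -69 and base -52 from the start site. One of the listed Ddc promoters held the NBRE on the other strand, at base -73, and the Slc6a3 promoter held neither. Of 33469 promoters searched, 1.59% held the CRE and 1.24% held the NBRE. The stretches of 130 bases that hold each match follow, 5′ to 3′, with the matched letters in capitals. They lie at chr1:207508219-207508348 (minus strand) for Th, chr1:268399891-268400020 (plus strand) for Slc18a2 and chr14:90682787-90682916 (minus strand) for Ddc.
Th: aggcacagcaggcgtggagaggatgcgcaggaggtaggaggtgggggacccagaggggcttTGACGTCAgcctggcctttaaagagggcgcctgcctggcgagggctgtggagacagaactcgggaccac
Slc18a2: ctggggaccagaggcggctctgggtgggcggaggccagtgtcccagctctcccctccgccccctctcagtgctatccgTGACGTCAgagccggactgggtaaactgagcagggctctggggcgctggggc
Ddc: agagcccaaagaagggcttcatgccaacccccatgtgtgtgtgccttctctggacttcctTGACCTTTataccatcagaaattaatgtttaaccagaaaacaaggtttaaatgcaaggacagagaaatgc
A match of letters is a description of the sequence and was not tested as a binding site.

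The 1998 nuclei were spread unevenly over the rats. Rats 1 to 5 gave 153, 1246, 194, 161 and 244 of them, so that rat 2 held more than the other 4 rats together. Neuronal nuclei were taken as these nuclei, the dopamine nuclei with Slc17a6, and all other nuclei with at least 3 of the 5 neuronal genes at a summed level of at least 8 per 10000 and Mog under 10 per 10000. Of the neuronal nuclei, Slc17a6-negative dopamine nuclei were 43.2%, 45.8%, 36.3%, 18.5% and 28.05% in rats 1 to 5, with a mean of 34.4% ± 11.2 (SD, n = 5). The order of the rats depended on the rule: rat 1 went to 13.4%, the lowest of the 5, under the stricter neuronal rule, to 15.1%, again the lowest, under 1% mitochondrial UMIs, and to 23.6% at 3000 UMIs or more, beside 23.7% in rat 5. The mean was 19.9% when the nuclei of the dopamine gate also had to meet the stricter neuronal rule, and 14.5% when other neurons needed only 1 of the neuronal genes, as the gate does. The gate genes were all detected in 1048 of the nuclei and exactly 3 in 950. No barcode of a member occurred in more than 1 library. Among all barcodes that passed the limits, 50 of 22034 distinct sequences did.

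The gate had few nuclei near its limit on the summed level and many near its limit on genes. There were 64 nuclei just inside the summed level of 8 per 10000 (8 to under 10, median 8.94) and 83 just outside it (6 to under 8, median 7.24). By contrast, 1206 barcodes with exactly 2 of the 4 genes reached the summed level and were left out (median 17.1 per 10000, median 1596 UMIs), beside 950 with exactly 3 genes that were kept (median 27.9, median 2130 UMIs). A further 207 nuclei had the dopamine genes and no Slc17a6 but 5000 or more genes, and were left out by the upper limit. Their median was 20530 UMIs.

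Depth and mitochondrial share differed between the libraries, and the Slc17a6-negative nuclei of rats 1 and 2 stood apart in mitochondrial share. The median UMI total of the Slc17a6-negative nuclei was 1700, 2596, 2477, 8931 and 6749 in rats 1 to 5, and their median mitochondrial share was 3.90%, 2.48%, 0.197%, 0.121% and 0.355%. Other neuronal nuclei had medians of 7904, 7106, 2211, 9759 and 7749 UMIs and of 0.113% to 0.656% mitochondrial UMIs. On the log2 scale the dopamine nuclei had fewer UMIs in 4 of 5 rats, by a mean of -0.77 ± 1.02 (SD), and the exact two-sided sign-flip permutation test gave p = 0.188, with 0.063 the smallest value that 5 rats allow. The groups in this test were chosen by unequal rules: other neuronal nuclei needed at least 3 of the 5 neuronal genes, and the dopamine nuclei 1 of them. With the stricter neuronal rule in both groups the difference was 0.05. Only 850 of the 1998 nuclei (42.5%) met that stricter rule, which were 16.3% of those of rat 1, 33.2% of rat 2, 61.3% of rat 3, 82.0% of rat 4 and 65.6% of rat 5.

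The shallow and the deep nuclei had different contents in 4 of the 5 rats. In rat 2, the 508 nuclei under 2000 UMIs had a median of 3.66% mitochondrial UMIs and a summed Mbp level, a myelin transcript, of 80.7 per 10000, whereas the 186 nuclei of 8000 UMIs or more had 0.446% and 17.0 per 10000. Lmx1b, a transcription factor of midbrain dopamine neurons, went the other way, from 0.261 to 1.43 per 10000, and so did the dopamine D2 autoreceptor Drd2, from 1.42 to 3.77. Other genes of these neurons fell with depth in rat 2, as Mbp did. The homeobox gene En1 went from 1.28 to 0.446 and the receptor Ret from 4.38 to 1.89. The gate genes Th and Slc6a3 went from 22.3 to 6.88 and from 27.0 to 9.99, while Pitx3 was at 0.333 and 0.350. Rat 1 showed the same order for mitochondrial UMIs, Mbp and Lmx1b, over 91 shallow and 14 deep nuclei. It had 4.04% and 1.67% mitochondrial UMIs, 61.2 and 34.9 per 10000 for Mbp, and 0.160 and 1.73 for Lmx1b. In rat 5 mitochondrial UMIs went from 2.56% to 0.201%, Mbp from 42.7 to 7.65 and Lmx1b from 0.517 to 1.64 per 10000. In rat 4, with 12 shallow nuclei, mitochondrial UMIs went from 1.58% to 0.0870% and Mbp from 34.6 to 5.34, while Lmx1b was at 2.31 and 2.19. Rat 3 did not show the order: its 64 nuclei under 2000 UMIs and its 33 nuclei of 4000 to under 8000 had 0.200% and 0.152% mitochondrial UMIs, 6.84 and 5.54 per 10000 for Mbp, and 0.947 and 0.861 for Lmx1b. The summed profile of the shallow nuclei correlated across genes with the free RNA of the same library (droplets under 100 UMIs) at 0.943 in rat 1 and 0.968 in rat 2, against 0.883 and 0.716 for the deep nuclei. It was 0.897 and 0.699 in rat 5, 0.805 and 0.781 in rat 4, and 0.657 to 0.682 in all 4 classes of rat 3. These correlations of log levels are across genes of 1 library, which are not independent replicates, and are given as a description. Each comparison is given also for nuclei of at least 3000 UMIs (1001 members) and for nuclei that met the stricter neuronal rule (850 members).

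**Figure D1:**
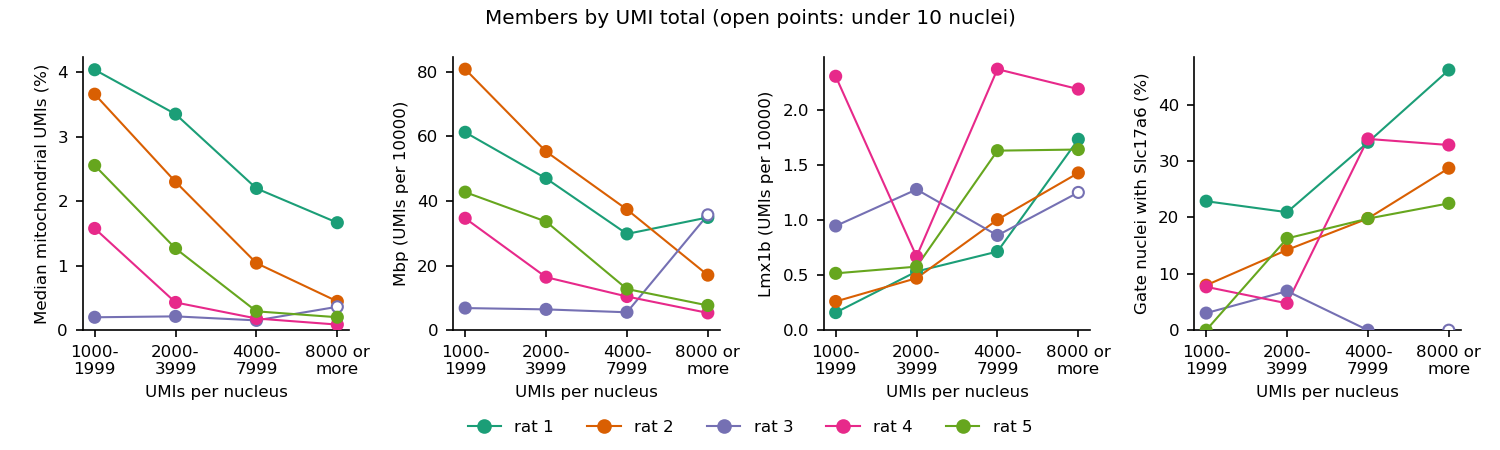
Slc17a6-negative dopamine nuclei of each rat in 4 classes of UMI total (x axis): median mitochondrial share in percent, summed Mbp and Lmx1b level in UMIs per 10000, and share of gate nuclei in percent with a UMI of Slc17a6. Mitochondrial share and Mbp were highest in the shallow nuclei of rats 1 and 2 (up to 4.04% and 80.7 per 10000), and Slc17a6 was seen more often in deeper nuclei in rats 1, 2, 4 and 5. Open points mark classes with under 10 nuclei.

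Whether Slc17a6 was seen in a gate nucleus went with its depth in most rats. In rat 2, Slc17a6 was detected in 7.97%, 14.2%, 19.8% and 28.7% of the gate nuclei of under 2000, 2000 to under 4000, 4000 to under 8000 and 8000 or more UMIs. Rat 3 was the exception, with 3.03%, 6.93%, 0 and 0. Over all depths, 415 gate nuclei had the transcript and 1998 did not, so the positive share was 17.2%, with 26.4%, 15.7%, 4.43%, 29.1% and 17.8% in rats 1 to 5. Of the 415 positive nuclei, 282 had exactly 1 UMI of Slc17a6. When each nucleus was thinned to 1000 UMIs, 61.8%, 40.9%, 22.2%, 19.7% and 20.8% of the Slc17a6-positive nuclei of rats 1 to 5 still showed it. A count of 0 in a nucleus therefore set the group, and it is not a measurement that the transcript was absent from the cell. In nuclei that should lack the gene, 0.883% to 7.08% of oligodendrocyte nuclei per rat had a UMI of Slc17a6 at the same thinned depth.

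Genes outside the gate were used to check the label, since the gate set the level of its own genes. Free RNA also held those: Th was at 12.1, 10.3, 6.03, 5.18 and 6.54 per 10000 in the dopamine nuclei of rats 1 to 5 and at 5.21, 9.10, 9.19, 4.67 and 5.46 in free RNA, and Slc6a3, like Th, was above free RNA in 4 of 5 rats. Slc18a2 and Ddc were above it in 5 of 5. Since the rule selected on these genes, their levels are a description and no check of the label. Against other neuronal nuclei, the dopamine nuclei had more Slc10a4, a vesicular protein of monoamine and cholinergic neurons, at 0.681, 0.293, 0.648, 0.297 and 0.198 per 10000 UMIs in rats 1 to 5 against 0.0470, 0.0216, 0.152, 0.0224 and 0.0152. The groups did not overlap, and the log2 fold change was 3.48 ± 0.27 (SE, edgeR adjusted p = 2.1e-05). The 5 noradrenaline and adrenaline genes summed to 0 to 0.0360 per 10000 in the dopamine nuclei and to 0 to 0.0117 in other neuronal nuclei, where Dbh, at 0 in the dopamine nuclei, also had at most 1 UMI a rat. The 6 histamine and hypothalamic genes summed to 0 to 0.0362 against 0.0238 to 0.414. Of these, Nkx2-1 and Lhx9 had 0 UMIs in the dopamine nuclei, whereas the level of Hcrt (0 to 5 UMIs a rat) was above that of other neuronal nuclei in 4 of 5 rats.

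Serotonin genes were present in a minority. The 4 genes listed summed to 4.70, 1.24, 1.08, 0.818 and 1.54 per 10000 in the dopamine nuclei of rats 1 to 5. Other neuronal nuclei had 0.169, 0.462, 6.79, 0.267 and 0.699, so rat 3 went the other way. Of 2 serotonin genes tested between these groups, 0 were called. Tph2, the enzyme that starts serotonin synthesis in the brain, was detected in 187 nuclei (9.36%), of which 124 had 1 UMI and 63 had at least 2. The 63 nuclei were 8, 41, 4, 2 and 8 in rats 1 to 5, and the serotonin transporter Slc6a4 was detected in 61.9% of them, against 2.43% of the nuclei without Tph2. These shares are pooled over rats and at unequal depth, with medians of 6399 and 2918 UMIs. In the 63 nuclei the summed levels of Th and Slc6a3 were 4.49 and 4.76 per 10000, against 8.79 and 11.3 in the nuclei without Tph2. Ddc, which serotonin neurons also use, was at 11.3 and 11.6. The 63 nuclei were 3.15% of all members. The comparison that follows was repeated without nuclei that had a UMI of Tph2, Slc6a4 or Fev, in both groups. This left out 238 members (11.9%). The call was kept for 1205 of the 1445 genes that were higher (1406 tested) and for 770 of the 822 that were lower (799 tested).

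The first comparison asked what sets the Slc17a6-negative dopamine nuclei apart from the other neuronal nuclei of the same rats. UMIs were summed per rat and group and tested with the edgeR quasi-likelihood test with the rat as a block, and a gene was called at a Benjamini-Hochberg adjusted p under 0.05. Outside the genes of the gate, 1445 of 10850 genes tested (13.3%) were higher and 822 (7.58%) lower in the dopamine nuclei, and the median log2 fold change over all genes tested was 0.04. Among nuclei of at least 3000 UMIs, 918 (8.56%) were higher and 846 (7.88%) lower. With the stricter neuronal rule in both groups, 844 were higher and 859 lower, so the higher genes were 63.7% of the calls with all nuclei, 52.0% at 3000 UMIs or more and 49.6% under the stricter rule. The balance turned under 1% mitochondrial UMIs, with 775 higher and 954 lower, and under a loose rule for other neurons, with 935 and 1089. Without rat 2, 707 genes were called, 356 higher and 351 lower. Of the 1445 higher genes, 837 were called the same way at 3000 UMIs or more and 597 under the stricter neuronal rule, where 28 had the opposite sign, as did 62 under 1% mitochondrial UMIs. Of the 822 lower genes, 727 and 676 kept the call.

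Markers of other cell types moved with this comparison and are given first. Of 9 oligodendrocyte genes tested besides Mog, 8 were higher in the dopamine nuclei with all nuclei taken, 4 at 3000 UMIs or more and 1 under the stricter neuronal rule. Under a loose rule for other neurons the sign turned for several, such as Mag (-0.26), Mobp (-0.15) and Mbp (-0.013), as the closing section lists. The summed oligodendrocyte level ranged from 19.9 to 112 per 10000 in the dopamine nuclei, from 13.3 to 38.3 in the other neuronal nuclei and from 156 to 256 in free RNA. Of 6 astrocyte genes, 2 were higher, 2 at 3000 UMIs or more and 0 under the stricter rule, with summed levels of 1.37 to 9.92 and 0.955 to 8.45 in both groups. Of 3 vascular genes, 2 were higher and 0 under the stricter rule, and the endothelial gene Flt1 was at 3.36 per 10000 in the dopamine nuclei of rat 1 but at 0 to 0.524 in those of the other rats. Of 5 tested genes of oligodendrocyte precursors, 2 were higher and 1 lower, and 0 were higher and 2 lower under the stricter rule. Of 3 tested microglia genes 1 was higher, and the single one that could be tested under the stricter rule did not pass. None of the oligodendrocyte, astrocyte or vascular genes listed was at 0 in the dopamine nuclei. The part of these cell types in single genes was not tested. The neuronal genes named below kept their call under the stricter rule unless stated.

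The transcription factors of midbrain dopamine neurons were higher as a group. Of 13 tested, 11 were higher and 0 lower, with a median log2 fold change of 1.27. Pitx3, which part of the midbrain dopamine neurons need to survive, was at 0.234, 0.342, 0.396, 0.391 and 0.395 per 10000 in the dopamine nuclei of rats 1 to 5 and at 0, 0.0335, 0.0700, 0.0367 and 0.0325 in the other neuronal nuclei. Every rat was higher, and the log2 fold change was 3.45 ± 0.26 (SE, edgeR adjusted p = 2.1e-05). Lmx1b was at 0.894, 0.991, 1.10, 2.16 and 1.53 against 0.310, 0.215, 0.653, 0.696 and 0.286, a log2 fold change of 1.84 ± 0.21. The groups did not overlap. Nr4a2, an orphan nuclear receptor that drives the dopamine phenotype, was at 1.51 in rat 1 and 0.666 to 0.739 in the other rats, above the 0.132 to 0.420 of the other neuronal nuclei, with a log2 fold change of 1.99 ± 0.28. En1, a homeobox gene that maintains these neurons, rose by 2.42 ± 0.26 on the log2 scale, Foxa2 by 1.27 ± 0.25 and Satb1 by 1.19 ± 0.21. Neurod6, a factor found in a subset of VTA dopamine neurons, was 3.16 ± 0.39 higher. Sox6 and Bcl11a were the 2 that did not pass, at -0.76 ± 0.37 (adjusted p = 0.18) and 0.72 ± 0.30 (adjusted p = 0.12). Under the stricter neuronal rule Sox6 was lower at -1.23 (adjusted p = 0.0085) and Bcl11a higher at 0.998 (adjusted p = 0.0019). Otx2, a marker of ventral VTA dopamine neurons, had 0 UMIs in every nucleus of all 5 libraries that reached 1000 UMIs. Whether its transcript was absent from the cells or was not counted was not tested.

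Transcription factors of other midbrain neurons were mostly lower. Of 7 tested, 4 were lower and 1 higher. Pax7 was at 0.0145 to 0.0743 per 10000 in the dopamine nuclei and at 0.0350 to 0.738 in the other neuronal nuclei, Meis2 at 0.0507 to 0.534 against 0.653 to 4.14, and their log2 fold changes were -3.52 ± 0.33 and -3.44 ± 0.32. Gata3, a factor of GABA neurons of the midbrain, was at -1.88 ± 0.30. The genes with the largest falls outside the lists included Pax3 (-3.59 ± 0.30), Tcerg1l (-3.34 ± 0.23), Nox4 (-3.26 ± 0.25) and Mtus2 (-3.16 ± 0.15). Rspo2 was at -3.47 ± 0.56, on 7 UMIs in all the dopamine nuclei. Pax3 and Rspo2 were too rare to be tested under the stricter rule.

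Genes of dopamine synthesis and breakdown outside the gate were higher where they passed. Of 10 tested, 6 were higher and 0 lower. Gch1, the first enzyme in making the cofactor of tyrosine hydroxylase, was at 1.0, 0.804, 1.17, 1.20 and 1.05 per 10000 in rats 1 to 5 against 0.0282, 0.0982, 0.373, 0.0830 and 0.0585. All 5 rats were at least at 0.804, above every value of the other neuronal nuclei, and the log2 fold change was 3.41 ± 0.32 (SE, edgeR adjusted p = 5.7e-05). Aldh1a1, which breaks down dopamine aldehyde and marks a subset of dopamine neurons, was at 2.96, 3.62, 1.51, 1.83 and 2.88 against 0.263, 0.395, 0.595, 0.193 and 0.199, a log2 fold change of 3.15 ± 0.29. Free RNA held Aldh1a1 at 2.59, 3.51, 1.78, 1.26 and 2.25, close to the dopamine nuclei, while at 1000 UMIs it was detected in 11.9% to 29.4% of the dopamine nuclei and in 1.15% to 9.70% of oligodendrocyte nuclei. Maoa, a monoamine oxidase, was higher by 1.10 ± 0.15, whereas Maob (0.81 ± 0.34) did not pass. Qdpr and Aldh2 passed with all nuclei taken and not under the stricter neuronal rule, at 0.04 and 0.40.

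Receptors divided into a higher and a lower set. Of 21 genes listed as receptors of dopamine neurons, 15 had enough UMIs to be tested, of which 6 were higher and 5 lower. Drd2 was at 1.49, 2.62, 1.51, 4.15 and 3.25 per 10000 in the dopamine nuclei against 0.339, 0.379, 0.466, 0.557 and 0.344, and its log2 fold change was 2.71 ± 0.20. The lowest dopamine value was above the highest of the other neuronal nuclei. When every nucleus was thinned to 1000 UMIs, Drd2 was detected in 7.84%, 15.5%, 14.9%, 27.3% and 23.4% of the dopamine nuclei, in 3.05% to 6.16% of the other neuronal nuclei and in 0 to 1.86% of oligodendrocyte nuclei, and in 21.6%, 36.3%, 32.0%, 71.4% and 62.7% of the dopamine nuclei before thinning. The neurokinin receptor Tacr3 (1.67 ± 0.15), the κ-opioid receptor Oprk1 (1.67 ± 0.21), the leptin receptor Lepr (1.43 ± 0.24), the muscarinic receptor Chrm5 (1.29 ± 0.12) and the α1-adrenergic receptor Adra1b (0.95 ± 0.15) were also higher. The serotonin receptor Htr2c was lower, at 1.15, 1.02, 0.864, 0.905 and 1.31 in the dopamine nuclei against 7.54, 8.0, 6.43, 15.2 and 13.0, a log2 fold change of -3.16 ± 0.21. The µ- and δ-opioid receptors Oprm1 (-2.10 ± 0.14) and Oprd1 (-3.41 ± 0.33) were lower, as were Grin3a (-0.92 ± 0.18) and Crhr1 (-0.79 ± 0.20), the last not under the stricter rule.

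Of 8 nicotinic receptor subunits listed, 6 had enough UMIs to be tested, of which 5 were higher and 0 lower, with a median of 1.34. Chrna6, whose receptors sit on dopamine terminals, was at 0.745, 0.663, 0.558, 0.724 and 0.713 per 10000 against 0.0376, 0.0766, 0.0583, 0.0399 and 0.0433. These values hardly varied among the rats, and the log2 fold change was 3.73 ± 0.21 (SE, edgeR adjusted p = 7.9e-06). Chrnb3, which assembles with it, was at 3.91 ± 0.33, Chrna4 at 1.54 ± 0.19 and Chrna5 at 1.14 ± 0.19. Chrna3 (1.01 ± 0.26) did not keep its call at 3000 UMIs or more or under the stricter rule, and Chrna7 (-0.34 ± 0.12, adjusted p = 0.072) did not pass. Chrnb4, left out by the filter on low counts, had 0, 8, 1, 0 and 2 UMIs in the dopamine nuclei against 2, 46, 3, 12 and 10, lower per UMI in 5 of 5 rats, and was at -1.62 (edgeR adjusted p = 0.034) in the fit with no filter. Free RNA held Chrna4 at 0.552 to 0.988 per 10000, above the dopamine nuclei in 4 of 5 rats.

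**Figure D2:**
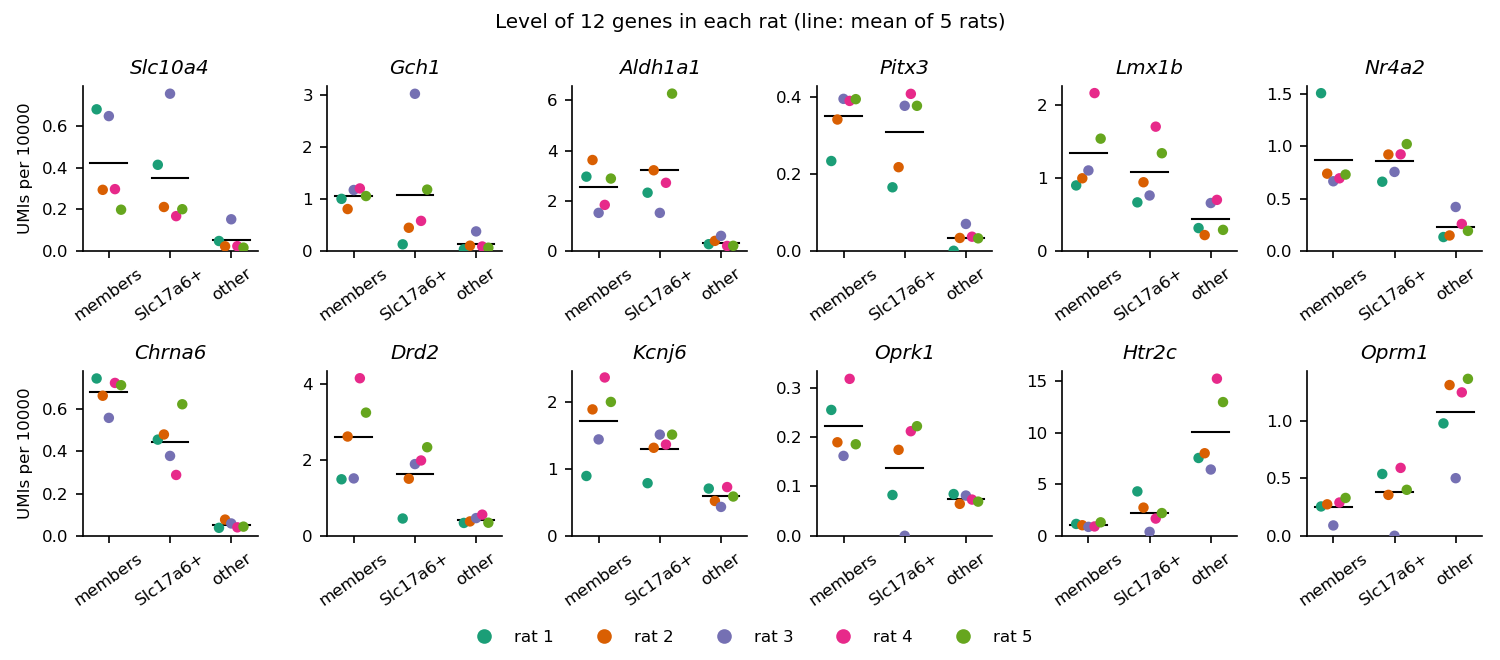
Level of 12 genes in UMIs per 10000 (y axis, from 0) in the Slc17a6-negative dopamine nuclei (members), the dopamine nuclei with Slc17a6 and the other neuronal nuclei, with 1 point per rat and a line at the mean of 5 rats. Chrna6 lay between 0.558 and 0.745 in the members and at 0.0766 or less in other neuronal nuclei, and Htr2c between 0.864 and 1.31 against 6.43 to 15.2. Each panel has its own scale.

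The GABA genes were lower. Of 6 genes of GABA transmission, 5 were lower and 0 higher, with a median of -0.91. Gad1 and Gad2, which make GABA, were at -1.95 ± 0.36 and -1.10 ± 0.29, and the vesicular transporter Slc32a1 at -0.88 ± 0.22. Gad2 was at 3.02, 1.41, 0.270, 0.789 and 0.917 per 10000 in the dopamine nuclei of rats 1 to 5, and at 2.66, 2.70, 1.32, 2.02 and 3.30 in other neuronal nuclei, so the groups overlapped. Free RNA held 1.55 to 3.48, above the dopamine nuclei in every rat. Of 10 GABA-A receptor subunits, 7 were lower and 1 higher. Gabra4 was that one, at 1.02, 2.15, 2.74, 2.61 and 2.76 against 0.634 to 0.913, a log2 fold change of 1.68 ± 0.18, while Gabra5 was at -1.36 ± 0.17 and Gabrb2 at -0.84 ± 0.18.

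Glutamate receptors were also mostly lower. Of 20 tested outside the gate, 13 were lower and 2 higher, with a median of -0.765. The kainate subunits moved both ways: Grik3 was higher by 1.39 ± 0.20, whereas Grik1 and Grik2 were at -1.50 ± 0.17 and -1.40 ± 0.13. The AMPA subunit Gria4 was at -1.46 ± 0.14 and the metabotropic receptors Grm5 and Grm7 at -1.84 ± 0.21 and -1.86 ± 0.15. Grin2a was the other higher gene (0.70 ± 0.16).

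Ion channels differed gene by gene. Of 19 pacemaker and potassium channel genes tested, 4 were higher and 5 lower, against 13.3% and 7.58% of all genes. Kcnj6, the GIRK2 channel through which D2 receptors act, was at 0.894, 1.89, 1.44, 2.37 and 2.0 per 10000 in rats 1 to 5 against 0.431 to 0.728 in the other neuronal nuclei. No value overlapped, and the log2 fold change was 1.61 ± 0.19. The small-conductance channel Kcnn3 (1.40 ± 0.23), the A-type channel Kcnd3 (1.27 ± 0.16) and its partner Kcnip4 (0.78 ± 0.13) were higher as well. Those that were lower included Kcnip1 (-2.54 ± 0.18), Kcnh7 (-2.07 ± 0.17), Kcnh1 (-1.61 ± 0.17) and Kcnn2 (-0.81 ± 0.19). Of 17 sodium and calcium channel genes, read against the same shares, 1 was higher (Cacna1e, 0.64 ± 0.19) and 5 lower. Among the lower were Cacna1i at -2.31 ± 0.20, Scn8a at -1.27 ± 0.12 and Scn1a at -0.96 ± 0.11.

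The genes of vesicle release did not move in 1 direction. Of 25 tested, 8 were higher and 4 lower, with a median of 0.14, against 13.3% and 7.58% of all genes. At 3000 UMIs or more 5 were higher and 5 lower, with a median of -0.07, and in rats 3, 4 and 5 alone 8 and 7. The vesicle glycoprotein Sv2c, known from dopamine neurons of the midbrain, was at 3.0, 6.44, 12.9, 9.23 and 7.87 per 10000 against 1.30, 1.34, 4.41, 1.55 and 1.08, with a log2 fold change of 2.18 ± 0.22, and the priming factor Cadps2 was at 1.56 ± 0.20. Unc13c and Syt6, which act in priming and calcium sensing, were at -2.50 ± 0.15 and -2.95 ± 0.29. Vamp2 (0.79 ± 0.25) and Rab3a (0.79 ± 0.20) lost the call at 3000 UMIs or more and under the stricter rule.

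Growth factor, peptide, guidance and Parkinson disease genes are read against the 13.3% of all genes that were higher and the 7.58% that were lower. The receptor Ret, which takes the signal of glial-derived growth factor, was at 4.23, 2.39, 1.82, 1.58 and 1.95 per 10000 against 0.305 to 0.851, a log2 fold change of 2.28 ± 0.20. The neurotrophin Ntf3 was at 3.09 ± 0.29 and Bdnf at 0.96 ± 0.20. Of 10 neurotrophic receptors and ligands tested, 4 were higher and 2 lower, and the same at 3000 UMIs or more. Under the stricter rule 4 were higher and 1 lower. Of 10 peptide and granin genes, 2 were higher, a share near that of all genes, and 0 lower, against 2 and 2 at 3000 UMIs or more and 2 and 3 under the stricter rule. Cholecystokinin (Cck), a peptide of many VTA dopamine neurons, was at 6.09, 4.22, 0.342, 1.06 and 2.19 against 0.480, 0.752, 0.0583, 0.171 and 0.466, a log2 fold change of 2.75 ± 0.22 on levels that spread widely over the rats. Free RNA held Cck at 4.10, 7.24, 1.78, 3.34 and 6.24, above the dopamine nuclei in 4 of 5 rats. Neurotensin (Nts) was at 1.60 ± 0.36, higher in 4 of 5 rats, and free RNA held it above the dopamine nuclei in 4 of 5. Of 25 axon guidance and adhesion genes, 11 were lower and 2 higher, against 11 and 5 at 3000 UMIs or more, 10 and 5 under the stricter rule and 12 and 6 in rats 3, 4 and 5. In all nuclei netrin-1 (Ntn1) was at 2.23 ± 0.16 and Sema6d at 0.97 ± 0.12, against Sema3a at -3.21 ± 0.37, Nrp2 at -1.84 ± 0.16 and Nrp1 at -1.70 ± 0.14. Of 17 genes of Parkinson disease, 4 were higher and 0 lower, and 2 and 0 at 3000 UMIs or more, where 8.56% of all genes were higher. Uchl1, a ubiquitin hydrolase of neurons, was at 13.8, 8.92, 2.86, 2.30 and 3.53 per 10000 in rats 1 to 5 against 4.72, 3.51, 2.04, 1.44 and 2.02, a log2 fold change of 1.05 ± 0.18. Free RNA held 15.2, 15.3, 7.25, 9.03 and 10.9, above the dopamine nuclei in every rat. Park7 and Fbxo7 were also higher and did not keep the call at 3000 UMIs or more or under the stricter rule.

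The genes with the largest rises outside these lists were Tmem207 (4.69 ± 0.34), Fam160a1 (3.96 ± 0.35), the growth factor Bmp5 (3.72 ± 0.29), the laminin chain Lama5 (3.64 ± 0.30) and Dlk1 (3.54 ± 0.22), a membrane protein of the Notch family. Tmem207 was at 0.809, 1.89, 0.738, 1.69 and 0.863 per 10000 in the dopamine nuclei of rats 1 to 5 and at 0.0173 to 0.152 in other neuronal nuclei. Dlk1 was at 4.0 in rat 1 and at 0.144 to 1.06 in the others, and its groups overlapped.

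**Figure D3:**
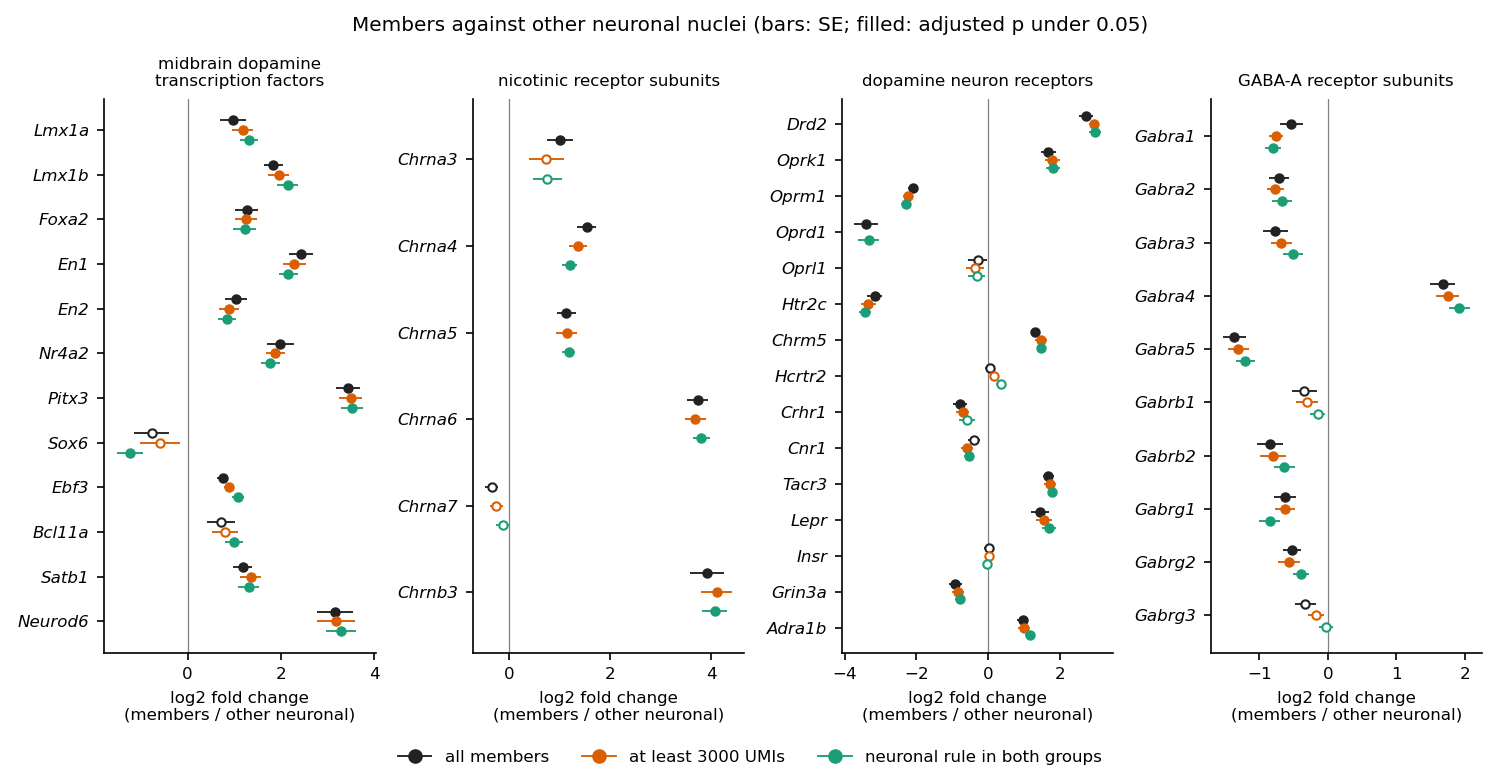
Log2 fold change (x axis) of Slc17a6-negative dopamine nuclei against other neuronal nuclei for genes of 4 lists, with bars of 1 SE, for all members, for nuclei of at least 3000 UMIs and with the stricter neuronal rule in both groups. Filled points had an adjusted p under 0.05. Pitx3 (3.45), Chrnb3 (3.91) and Drd2 (2.71) lay far to the right and Htr2c (-3.16) to the left in each of these settings.

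The second comparison set the Slc17a6-negative nuclei beside the dopamine nuclei with Slc17a6. Few genes passed: 52 of 8428 genes tested (0.617%) were higher and 77 (0.914%) lower in the negative nuclei, with a median of 0.02 over all genes. Among nuclei of at least 3000 UMIs 53 (0.665%) were higher and 52 (0.653%) lower, and 43 of the 52 and 50 of the 77 kept their call. Under the stricter neuronal rule 41 and 41 kept it, and in rats 3, 4 and 5 alone 32 and 29, with 1 of the 77 of opposite sign. Rat 3 had only 9 Slc17a6-positive nuclei, against 53 to 232 in the other rats, and was not in the fit under the stricter neuronal rule. Without rat 2, 66 genes were called. The positive nuclei were deeper in every rat, with medians of 2037, 5265, 3254, 9930 and 8047 UMIs, and the part of depth in single genes was not tested beyond the alternatives given in the closing section. Of 9 oligodendrocyte, 6 astrocyte and 3 vascular genes 0 passed with edgeR, 0, 0 and 2 of them had an unadjusted p under 0.05, and DESeq2 called 0. In other settings a vascular gene was called lower in the negative nuclei. This was 1 of 2 tested under the stricter neuronal rule and 1 of 2 without nuclei that had a serotonin gene. In rats 3, 4 and 5 it was 1 of 1, and at 3000 UMIs or more 0 of 3. Ebf1, which the vascular list holds but neurons also express, was above the positive nuclei in 0 of 5 rats, and the groups did not overlap.

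Of 20 tested genes of dopamine subtypes, 6 were higher and 1 lower in the negative nuclei, but in rats 3, 4 and 5 alone 3 were higher and 3 lower of 19. Sox6, a transcription factor of the lateral VTA and substantia nigra, was at 2.23, 2.59, 1.46, 1.01 and 1.61 per 10000 in rats 1 to 5 and at 1.49, 0.836, 1.89, 0.818 and 0.422 in the positive nuclei. It was higher in 4 of 5 rats, with a log2 fold change of 1.13 ± 0.18 (SE, edgeR adjusted p = 1.6e-05). Drd2 was higher by 0.86 ± 0.17, Ntf3 by 1.27 ± 0.23, Chrna5 by 0.89 ± 0.19 and Col25a1, a membrane collagen, by 0.75 ± 0.17, while Aldh1a1 (-0.28 ± 0.18, adjusted p = 0.74) and Slc10a4 (0.53 ± 0.24, adjusted p = 0.49) did not pass. Aldh1a1 went both ways, above the positive nuclei in 3 of 5 rats. Of 13 transcription factors of midbrain dopamine neurons, 1 was higher (Sox6) and 1 lower (Ebf3, -0.71 ± 0.16). Maob (1.34 ± 0.29) lost its call when nuclei with serotonin genes were left out (0.99, adjusted p = 0.065).

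Tph2 led the genes that were higher in the negative nuclei. It was at 3.64, 0.903, 1.04, 0.673 and 1.22 per 10000 in rats 1 to 5 and at 0.579, 0.203, 0, 0 and 0.0889 in the positive nuclei, while free RNA held 0.489 to 1.07. The log2 fold change was 2.86 ± 0.24 (SE, edgeR adjusted p = 2.9e-14). It could not be tested without the nuclei that had a serotonin gene. Of the remaining genes named by rank, Tmem207 (1.58 ± 0.18), the phosphodiesterase Pde11a (1.57 ± 0.20), the potassium channel subunit Kcns3 (1.43 ± 0.27), Mylip (1.23 ± 0.23), Fam20a (1.21 ± 0.22), Insyn2a (1.07 ± 0.20), Lypd1 (1.04 ± 0.24) and Mboat1 (1.03 ± 0.19) were higher. Each of these 8 kept its call without the nuclei that had a serotonin gene, but Insyn2a was at -0.03 (edgeR adjusted p = 0.985) with nuclei of 5000 genes or more kept.

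Genes lower in the negative nuclei, and thus higher beside Slc17a6, were led by Ebf2, a transcription factor. It was at 1.04, 0.415, 0.900, 0.456 and 0.192 per 10000 in rats 1 to 5 against 2.36, 1.82, 1.89, 2.20 and 0.556 in the positive nuclei. Each rat was lower, and the log2 fold change was -1.79 ± 0.17 (SE, edgeR adjusted p = 6.6e-12). Sulf1, an enzyme that edits heparan sulfate, was at -1.49 ± 0.17, Ano5 at -1.49 ± 0.23, Pkib at -1.42 ± 0.32 and the synaptic vesicle protein Synpr at -1.41 ± 0.25. The matrix genes Col11a1 (-1.34 ± 0.18) and Reln (-1.29 ± 0.17), Ptchd4 (-1.23 ± 0.17), the cadherin Cdh6 (-1.19 ± 0.24) and the semaphorin receptor Nrp1 (-1.11 ± 0.17) followed. Htr2c, Unc13c and Kcnip1, which were lower in the dopamine nuclei than in other neurons, were also lower in the negative than in the positive nuclei, at -1.14 ± 0.16, -1.11 ± 0.17 and -0.83 ± 0.17. The first comparison and this one share the negative nuclei. Of 6 genes of GABA transmission 0 passed here with edgeR, 2 had an unadjusted p under 0.05, and DESeq2 called 0. At 3000 UMIs or more 1 was lower, as was 1 in rats 3, 4 and 5, and 0 passed under the stricter rule.

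**Figure D4:**
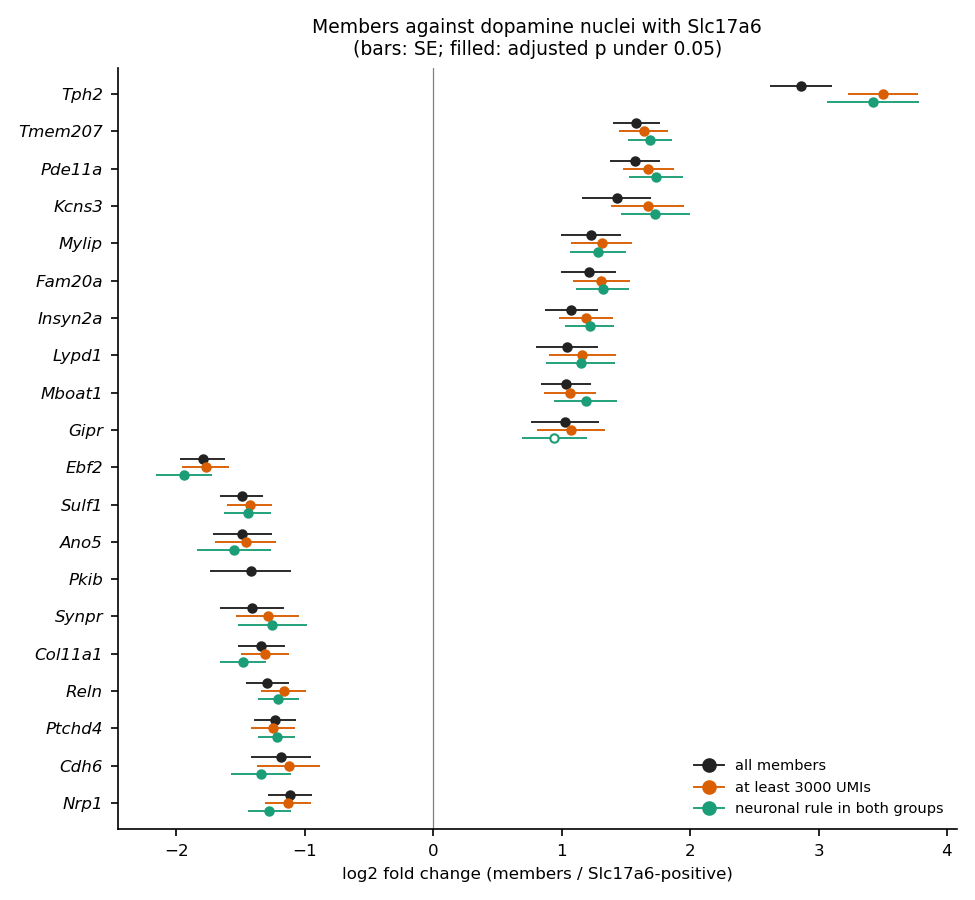
Log2 fold change (x axis) of Slc17a6-negative against Slc17a6-positive dopamine nuclei for the 20 genes named by rank, with bars of 1 SE, for all members, for nuclei of at least 3000 UMIs and with the stricter neuronal rule in both groups. Filled points had an adjusted p under 0.05. Tph2 (2.86) stood highest and Ebf2 (-1.79) lowest, and Pkib (-1.42) was tested only with all members.

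The receptors for the incretin hormones were compared, Glp1r because the study concerned it and Gipr beside it. Gipr, the receptor for glucose-dependent insulinotropic polypeptide, was detected in 184 of the 1998 nuclei (9.21%, exact 95% interval 7.98% to 10.6%), in 32 of 415 Slc17a6-positive dopamine nuclei (7.71%, 5.33% to 10.7%), in 75 of 2940 other neuronal nuclei (2.55%, 2.01% to 3.19%) and in 175 of 8538 oligodendrocyte nuclei (2.05%, 1.76% to 2.37%), at median depths of 3024, 6271, 7304 and 2932 UMIs. Its summed level was 0.0851, 0.215, 0.450, 0.601 and 0.401 per 10000 in rats 1 to 5, against 0.0376, 0.0248, 0.105, 0.0671 and 0.0281 in other neuronal nuclei. All 5 rats were higher, with a log2 fold change of 3.09 ± 0.26 (SE, edgeR adjusted p = 2.9e-05). Rat 1 was at the level of its free RNA (0.0891), and the other rats were above theirs (0.0388 to 0.185). Against Slc17a6-positive nuclei Gipr was at 1.02 ± 0.27 (edgeR adjusted p = 0.022), and 0.88 with an adjusted p of 0.071 once nuclei with serotonin genes were left out. Glp1r, the receptor for glucagon-like peptide-1, was detected in 7 of the 1998 nuclei with 1 UMI each (0.350%, 0.141% to 0.721%), in 1 of 415 Slc17a6-positive dopamine nuclei (0.241%, 0.00610% to 1.34%), in 56 of 2940 other neuronal nuclei (1.90%, 1.44% to 2.47%) and in 6 of 8538 oligodendrocyte nuclei (0.0703%). Its UMIs numbered 0, 5, 0, 1 and 1 in rats 1 to 5 against 5, 45, 6, 21 and 19 in other neuronal nuclei, lower per UMI in 5 of 5 rats. The filter on low counts left Glp1r out, and the fit with no filter gave -2.59 ± 0.56 (edgeR adjusted p = 6.5e-05), while free RNA held 0 to 0.0375 per 10000 and was above the dopamine nuclei or at 0 in every rat. These intervals cover counting error only. They pool the nuclei of all rats, with 1246 of the 1998 from rat 2, and leave out the spread between rats.

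The third comparison was made among the Slc17a6-negative nuclei, between those with Sox6 and no Calb1 and those with Calb1 and no Sox6. Sox6 and Calb1, the gene of the calcium buffer calbindin, are used to tell ventral-tier from dorsal-tier dopamine neurons. Otx2 had been listed beside Calb1 but had no UMI, so it took no part. Sox6 alone was found in 298 nuclei (8, 205, 27, 22 and 36 in rats 1 to 5), Calb1 alone in 427 (36, 250, 30, 47 and 64), both in 125 and neither in 1148. Sox6 was found in 22.6% of the nuclei with Calb1 and in 20.6% of those without, at median depths of 5455 and 2505 UMIs. The order differed between rats: it was 14.3% and 7.21% in rat 1, but 16.1% and 21.0% in rat 4. These shares are a description at unequal depth.

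Between these groups 53 of 4956 genes tested (1.07%) were higher with Sox6 and 31 (0.626%) higher with Calb1. Among nuclei of at least 3000 UMIs the numbers were 88 (1.36%) and 54 (0.833%), where 51 of the 53 and 30 of the 31 were again called. That fit held 4 rats, since rat 1 had under 5 nuclei with Sox6, and leaving out rat 1 alone gave 80 and 38. Under the stricter neuronal rule, also fitted without rat 1, 22 of the 53 (50 tested) and 29 of the 31 kept their call. The fit without rat 2, or without rat 5, called 18 genes. Glial markers moved with the Sox6 side: of 5 astrocyte genes tested 3 were higher, 6 of 6 at 3000 UMIs or more and 0 of 4 under the stricter rule, and of 2 genes of oligodendrocyte precursors 2 were higher, among them Vcan at 2.86 ± 0.32, and 1 of 2 under the stricter rule. Of the oligodendrocyte genes 0 of 8 were higher, and 1 of 9 under the stricter rule. The 1 vascular gene tested, Ebf1, which neurons also express, was higher by 0.93 ± 0.22 and by 1.29 under the stricter rule. The 8 Sox6 nuclei of rat 1 stood apart, with 26.2 per 10000 for the summed serotonin genes, against 0.638 with Calb1 and 0.134 to 0.935 with Sox6 in the other rats, and 3.15 for the microglia genes, against 0.168 to 0.589. The part of glial RNA in the Sox6 side was not tested.

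On the Calb1 side, Ntng1, a netrin-like adhesion protein, was at 5.74, 2.68, 1.42, 4.67 and 3.87 per 10000 in rats 1 to 5 against 0, 0.495, 0.104, 2.42 and 0.294 with Sox6. Each rat had more of it with Calb1, and the log2 fold change of Sox6 over Calb1 was -2.21 ± 0.28 (SE, edgeR adjusted p = 7.5e-07). The anion transporter Slc26a7 (-2.56 ± 0.41), Adamts19 (-1.79 ± 0.31), Col24a1 (-1.70 ± 0.30), the mechanosensitive channel Piezo2 (-1.61 ± 0.27), Pde11a (-1.25 ± 0.26), Ano3 (-1.21 ± 0.26), Pde5a (-1.18 ± 0.32) and the neuropeptide S receptor Npsr1 (-1.17 ± 0.27) followed. The orexin receptor Hcrtr2 was at 0.766, 0.635, 1.10, 1.16 and 1.10 with Calb1 against 0, 0.224, 0.416, 0.269 and 0.337 with Sox6. The groups did not overlap, and the log2 fold change was -1.65 ± 0.29. Ebf3 (-1.09 ± 0.24), Kcnip4 (-1.0 ± 0.20) and Aldh1a1 (-0.93 ± 0.24, edgeR adjusted p = 0.022) were also higher with Calb1, the last with an adjusted p of 0.058 under the stricter rule.

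On the Sox6 side, Hs6st3, a heparan sulfate sulfotransferase, was at 0.525, 4.78, 2.50, 6.05 and 3.66 per 10000 in rats 1 to 5 against 0.383, 1.45, 0.329, 1.66 and 1.43 with Calb1. It was higher in 5 of 5 rats, by 1.73 ± 0.21 on the log2 scale with all nuclei and by 1.82 under the stricter rule. The Sox6 value of rat 1 rests on 8 nuclei with 19061 UMIs, and the stricter fit left rat 1 out. Slc4a4 (2.37 ± 0.25), Xylt1 (2.26 ± 0.31), Cdh20 (2.20 ± 0.33), Zfpm2 (1.78 ± 0.26) and Fign (1.63 ± 0.28) also kept their calls there. Over all members, Slc4a4 was above free RNA in 2 of 5 rats and Fign in 1 of 5. Zfpm2 was above it in 3 of 5, and Xylt1 and Cdh20 in 4 of 5. Cdh20 was at 0.865 to 1.28 per 10000 in oligodendrocyte nuclei, above the Sox6 group in 4 of 5 rats, and Fign at 1.59 to 3.46, above it in 5 of 5. Bcas1 (1.35 ± 0.23) and the angiotensinogen gene Agt (1.28 ± 0.24) did not keep their calls under the stricter rule, at 0.84 and 0.70. Lhfpl6 (1.80 ± 0.32) had too few UMIs to be tested there. Satb1 was higher with Sox6 by 0.81 ± 0.20, in 5 of 5 rats. Cntn4 was at 0.94 ± 0.23, higher in only 3 of 5 rats, and did not pass in rats 3, 4 and 5 alone (edgeR adjusted p = 0.0503). Drd2 (0.02 ± 0.21) and Kcnj6 (0.02 ± 0.21) showed no difference that passed, with an adjusted p of 0.999 for each.

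**Figure D5:**
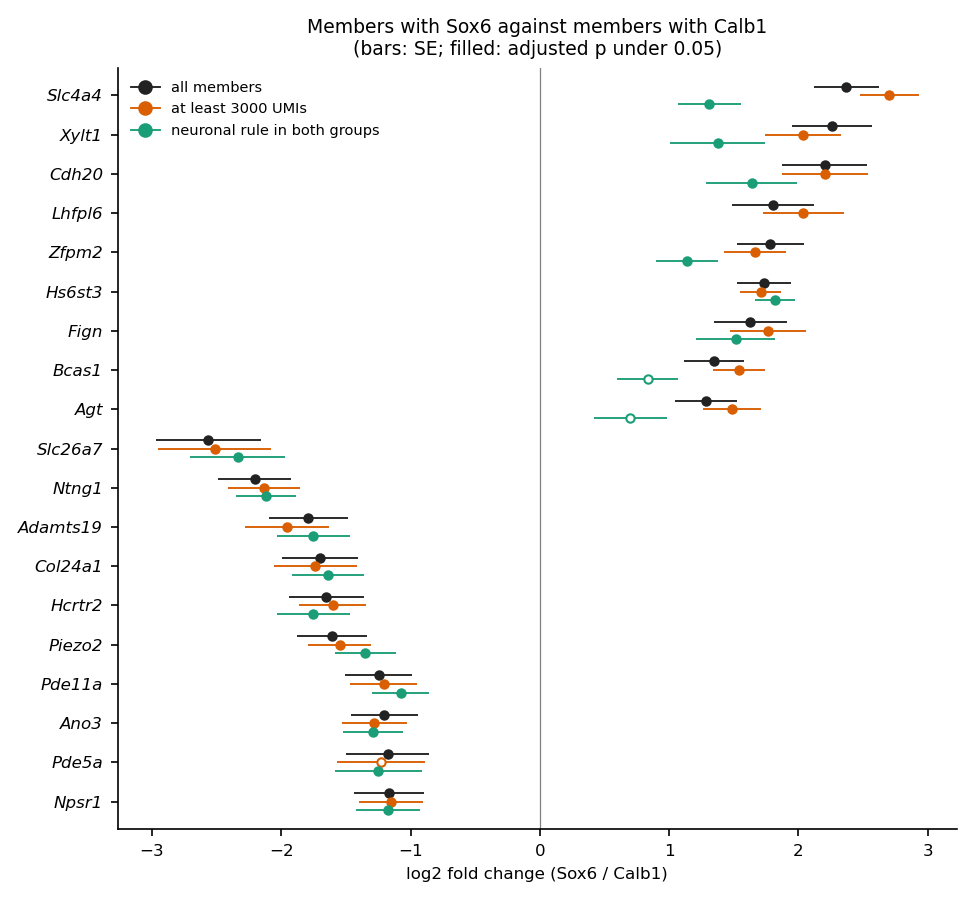
Log2 fold change (x axis) of Slc17a6-negative nuclei with Sox6 against those with Calb1 for 19 genes named by rank, with bars of 1 SE, for all members, for nuclei of at least 3000 UMIs and with the stricter neuronal rule in both groups. Filled points had an adjusted p under 0.05. Ntng1 lay near -2.21 in each setting, whereas Agt moved from 1.28 to 0.70 under the stricter rule.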

How the data were processed

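Single-nucleus RNA-seq had been run on VTA tissue of 5 rats, 1 library each (10x Genomics 3′ v3.1). The authors deposited raw counts, UMIs per gene and barcode before cell calling, made with Cell Ranger 8.0.1 according to the submitters' processing notes. The genome build is not given in the sources used here. Libraries held 10193355 to 88576210 UMIs over 32883 genes.

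Barcodes were selected by the rule given above. Oligodendrocyte nuclei were barcodes within the same limits with Mog at 10 per 10000 or more. Free RNA was the sum of droplets under 100 UMIs. The members, gene lists and gate were chosen with earlier results of these data known. Cells were not treated as replicates: counts were summed per rat and group and tested with edgeR 4.0.16 (R 4.3.3, TMM, filterByExpr, quasi-likelihood test, rat as block, Benjamini-Hochberg adjustment, threshold 0.05), with DESeq2 1.42.0 as an alternative. SEs were derived from the F statistic. Levels are summed UMIs per 10000. The rat pairs the sums because both come from 1 animal, and deviations of the pairs correlated at 0.449 to 0.791. On simulated counts for the first comparison (10861 genes), the test recovered 66 of 100 genes changed by 1 and 95 of 100 changed by 2 on the log2 scale. The simulated counts had the same dispersion for every gene and the same change in every rat. Recovery in the real counts was therefore not measured. Genes of the gate were fitted but not reported as results, nor Sox6, Calb1 and Otx2 in the third comparison.

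Named genes were those of the lists that results turn on and, per comparison and direction, up to 10 genes with the largest absolute fold change among those that passed, moved the same way in every rat fitted, had at least 50 UMIs in the higher group and had a gene symbol. The Scrublet automatic threshold marked 18 of 22084 barcodes and thus had not worked, so no doublets were removed, and leaving out the top 5% of scores was an alternative. Intervals are exact (Clopper-Pearson, 95%). Promoters were from RefSeq tables. Some genes that met the rule for named genes are not reported here. Analyses used Python 3.11.15, numpy 2.4.6, scipy 1.17.1, pandas 2.3.3 and scanpy 1.11.5. The alternatives on the neuronal rule, mitochondrial share, rats 3 to 5, serotonin genes and top doublet scores were chosen after seeing the data.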

Additional observations from a re-analysis of the deposited data

Results flagged for a closer look

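Of 55 values tested over the 5 rats, 8 had 1 rat far from the other 4 (a gap to the nearest rat above 0.71 of the whole range), where chance gives about 1 in 20. The number of Slc17a6-negative dopamine nuclei was 1246 in rat 2 and 153 to 244 in the others. In rat 1, Nr4a2 stood at 1.51 per 10000 UMIs of these nuclei (0.666 to 0.739 in the others), Dlk1 at 4.0 (0.144 to 1.06), Tph2 at 3.64 (0.673 to 1.22) and Kcns3 at 0.213 (0.376 to 0.431). Col11a1 was at 0.551 in rat 5 (0.274 to 0.347 in the others), Pax3 at 0.0763 in rat 2 (0 to 0.0213) and Rspo2 at 0.0720 in rat 3 (0 to 0.00587).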

How the results depend on the processing

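Against other neuronal nuclei 2267 genes were called, 311 with no replicate block (1217 at an unadjusted p under 0.05) and 707 to 2818 with 1 rat left out (707 without rat 2, 1496 without rat 5). Against Slc17a6-positive nuclei 129 were called, 67 by DESeq2 (36 higher and 31 lower, against 52 and 77), 0 with no replicate block (114 at an unadjusted p under 0.05), 66 to 131 with 1 rat left out (66 without rat 2), 79 in rats 3 to 5, 35 with all 4 dopamine genes required (4 rats, rat 3 having too few nuclei), 28 after thinning to 1000 UMIs and 60 with free RNA subtracted. Between Sox6 and Calb1 nuclei 84 were called, 32 by DESeq2, 147 with no filter, 0 with no replicate block (73 at an unadjusted p under 0.05), 18 to 118 with 1 rat left out (18 without rat 2 and 18 without rat 5), 142 at 3000 UMIs or more and 153 under 1% mitochondrial UMIs (both on 4 rats, against 118 without rat 1 alone), 19 with no maximum of genes, 1 after thinning and 18 with free RNA subtracted. The mean share of 34.4% was 14.5% under a loose rule for neurons, 20.4% with all 4 genes required, 19.9% under the stricter neuronal rule, 23.0% under 1% mitochondrial UMIs and 31.5% to 38.3% with 1 rat left out. The UMI difference of -0.77 was 0.052 under the stricter neuronal rule and -0.999 to -0.40 with 1 rat left out. Of the named and listed genes followed, 13 of 150 in the first comparison, 1 of 45 in the second and 0 of 36 in the third changed sign in some alternative, and 82, 8 and 6 kept their call in every alternative with the block in which they were tested, and 60, 4 and 0 were tested and called in all of these alternatives. In the first comparison Aqp4 was at -0.085 under the stricter neuronal rule, and under a loose rule for other neurons Mag was at -0.26, Slc1a3 -0.96, Hapln2 -0.34, Ctss -0.62, Cd9 -0.35, Ermn -0.036, Sox10 -0.93, Mobp -0.15, Cnp -0.052, Olig1 -0.13, Aqp4 -0.65, Mbp -0.013 and Aldh2 -0.048. In the second comparison Insyn2a was at -0.035 with no maximum of genes. The causes were not tested.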
